A study of Mus musculus with 18 samples.

Results

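The comparison described here sets RelA(TA2) cells against RelA(wt) cells before any TNFα was added. Its libraries were chosen by their labels, and they are 4 of the 18 in the series, 2 of each line. All libraries came from immortalized rela-/- mouse embryonic fibroblasts, so no group had its own RelA protein, and RelA was put back with the retroviral vector pBABE-puro, in which a viral promoter drives the insert. RelA(TA2) cells carried mouse RelA with the substitutions L449A and F473A, and RelA(wt) cells carried the unchanged mouse protein. A further line, used here only for reference, carried RelA(Ser276Ala). TNFα was given at 5 ng/ml to further cells of each line for 1 h or 2 h, and the study describes the 2 libraries of a condition as independent replicates. Whether a line was a pool of infected cells or 1 clone is not given in the sources used here, so the mutation and any other difference between the lines cannot be told apart.

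RelA, also called p65, is the NF-κB subunit with a strong transactivation domain. In resting cells IκB proteins hold it in the cytoplasm, and TNFα sets it free to enter the nucleus, bind κB sites and engage the co-activators CBP and p300. The TA2 region of RelA binds the TAZ1 domain of these co-activators, and the RelA(TA2) substitutions were designed to break that contact. The paper also describes a separate contact of the DNA-binding region of RelA with their KIX domain. It reports that the mutant bound CBP less but still to some extent. The comparison without TNFα asks how far the lines already differed when the stimulation began.

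Gene levels are given in FPKM (fragments per kilobase of transcript per M mapped fragments), summed over the transcripts assembled on a gene in 1 library. A value of 0 means that no transcript was assembled, which need not mean that no RNA was present. Differences were tested with limma on log2(FPKM + 0.5), and a gene was called when its Benjamini-Hochberg adjusted p over 12271 genes was under 0.05. Libraries of the series held 25.3 to 31.3 M mapped fragments. The RelA(TA2) pair was the least alike: the median gap between its libraries was 0.161 on the log2 scale of recovered fragments, against 0.0847 for the RelA(wt) pair and 0.0675 to 0.133 for the other pairs. In RelA(TA2) replicate 1, 95.7% of assembled fragments lay in genes, against 98.2% in each of the other libraries compared. All 12 fibroblast markers were among the genes tested, but 1 of them was at 0 in both libraries of a line. They summed to 5705 to 6455 FPKM in RelA(TA2) and 6209 to 8290 FPKM in RelA(wt) cells. Defining markers of macrophages (Ptprc, Itgam), endothelium (Pecam1, Tek), epithelium (Cdh1, Epcam) and muscle (Myod1, Myog) were at 0, but other members of these lists were present. Krt19 of the epithelial list had 39.3 and 52.7 FPKM in RelA(TA2) against 59.4 and 41.0 FPKM in RelA(wt) cells. Cdh5 of the endothelial list had 3.85 and 4.41 against 2.70 and 3.21 FPKM. The 10 macrophage markers summed to 16.6 to 17.1 FPKM in RelA(TA2) and 21.4 to 28.5 FPKM in RelA(wt) cells. No marker of the 7 other cell types listed was called on FPKM.

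The lines differed before TNFα in many genes. RelA(TA2) cells held more mRNA of matrix and contractile genes such as Fn1, Fbln2, Thbs1 and Acta2 and of the chemokine genes Ccl7 and Cxcl12, and less of Atf3, Hspb8, Mgst1 and Cck. In all, 236 genes were higher in RelA(TA2) cells, 1.92% of those tested, and 160 were lower, 1.30%. For each called gene both RelA(TA2) libraries lay on the same side of both RelA(wt) libraries. Passing the test on these same libraries makes that likely, and its share over all genes tested was not counted, so it adds no support. Of the 236 genes 34 had no transcript assembled in either RelA(wt) library, and of the 160 genes 32 had none in either RelA(TA2) library. Fragment counts recovered from the files gave a second measure with a smaller spread, a median SD between replicates of 0.103 on the log2 scale against 0.307 for FPKM. On it, 1520 of 11808 genes were higher (12.9%) and 1266 lower (10.7%). The counts given for lists below are to be read against these shares, 1.92% and 1.30% on FPKM and 12.9% and 10.7% on fragments. Of the 20 markers of other cell types tested on it, 2 were higher and 8 lower, 3 of them nerve and glia markers, and their part in the other differences was not tested. Of the genes called on FPKM, 204 of the 236 and 142 of the 160 were called in the same direction on both measures. With 2 libraries per line, 82 of the 236 and 56 of the 160 genes were called without each of the 4 libraries in turn. The higher count was 410 without RelA(TA2) replicate 1, 117 without RelA(wt) replicate 1 and 153 without RelA(wt) replicate 2.

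**Figure D1:**
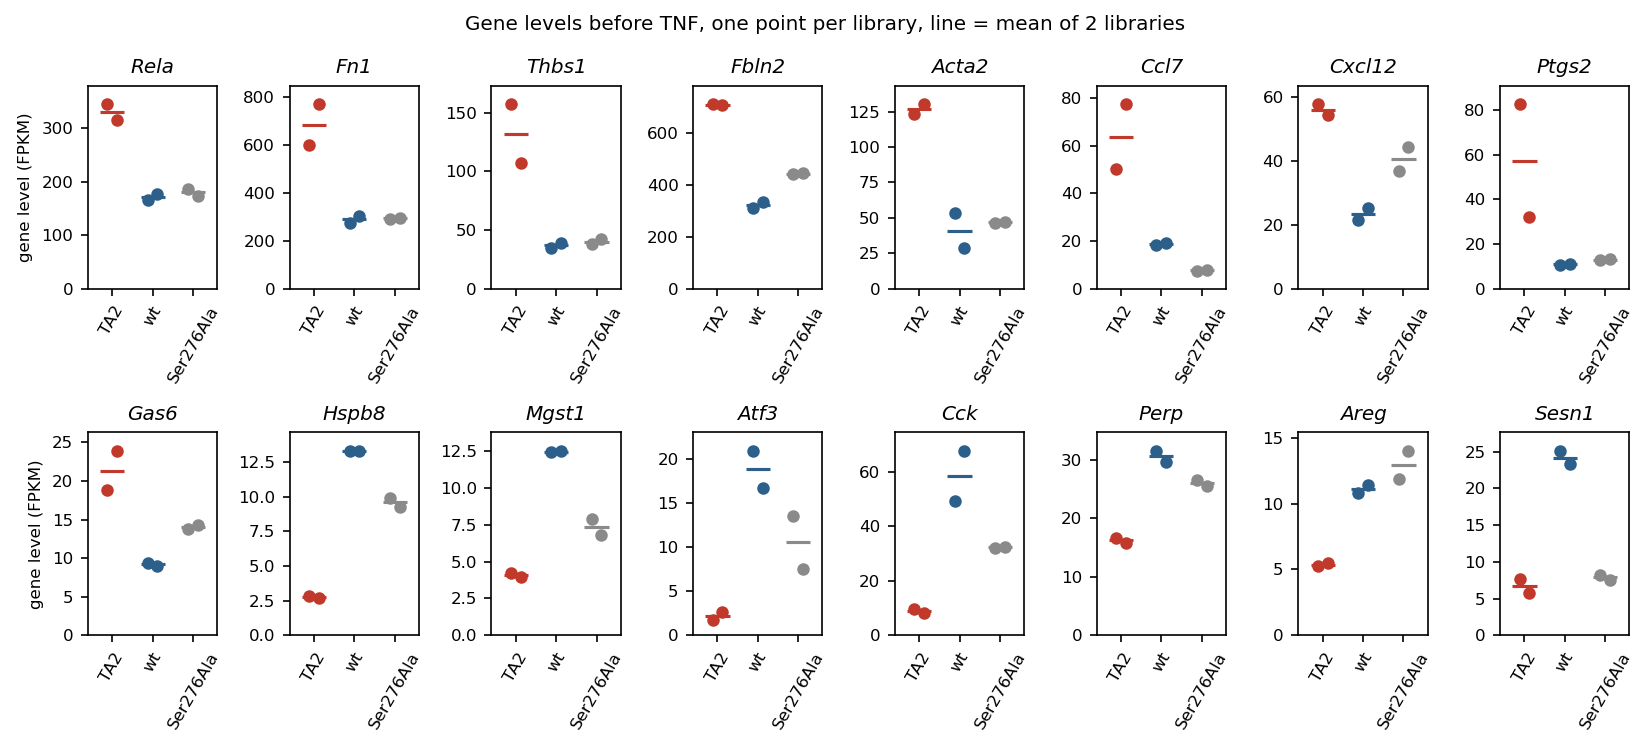
Levels of 16 genes in FPKM in unstimulated RelA(TA2), RelA(wt) and RelA(Ser276Ala) cells, with 1 point per library and a bar at the mean of 2 libraries. The RelA(TA2) points lie above both RelA(wt) points for Rela, Fn1, Thbs1, Fbln2, Acta2, Ccl7, Cxcl12, Ptgs2 and Gas6, and below them for Hspb8, Mgst1, Atf3, Cck, Perp, Areg and Sesn1.

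Rela, the gene put back in these lines, was itself unequal. Its level was 344 and 315 FPKM in RelA(TA2) against 165 and 176 FPKM in RelA(wt) cells, and 186 and 174 FPKM in RelA(Ser276Ala) cells. The means were 329 ± 20.4 FPKM in RelA(TA2) and 171 ± 8.04 FPKM in RelA(wt) cells (SD, n = 2 each), and the difference passed the test (log2 0.95, SE 0.10, adjusted p = 0.000637 from limma). It passed again at 1 h (log2 0.91, adjusted p = 0.000731) and 2 h (log2 1.00, adjusted p = 0.000577), so the lines stood at unequal Rela mRNA at every time. The part of this in the other differences was not tested. These are mRNA levels and not a measure of RelA protein. The paper reports that RelA protein varied between the lines and was lower in RelA(Ser276Ala) than in RelA(wt) or RelA(TA2) cells. Rela lies on chromosome 19 (chr19:5637490-5648130, plus strand, mm10). In each of the 18 libraries its main transcript was assembled with 10 exons with a start beyond the annotated first exon. Separate unspliced pieces that overlap that exon were assembled in 10 libraries, none of them among the 4 compared.

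The genes of CBP and p300, whose TAZ1 contact the substitutions were designed to break, showed no difference past the test. Crebbp, which encodes CBP, had 10.2 and 6.52 FPKM in RelA(TA2) against 9.70 and 12.1 FPKM in RelA(wt) cells (log2 -0.39, SE 0.34, adjusted p = 0.662 from limma), and on fragments its log2 difference was 0.06. Ep300, which encodes p300, had 14.5 and 12.9 FPKM in RelA(TA2) against 12.7 and 12.7 FPKM in RelA(wt) cells (log2 0.10, SE 0.30, adjusted p = 0.955). Libraries of the lines overlapped for Crebbp and lay within a narrow range for Ep300. Of 11 co-activator genes tested, 2 were higher. Cited2, whose protein competes for TAZ1, had 89.2 and 83.5 FPKM in RelA(TA2) against 68.4 and 68.1 FPKM in RelA(wt) cells (log2 0.34, SE 0.07, adjusted p = 0.0287). Ncoa1, a co-activator of nuclear receptors, had 7.15 and 11.2 FPKM in RelA(TA2) against 2.98 and 2.89 FPKM in RelA(wt) cells (log2 1.46, SE 0.26, adjusted p = 0.0133), but a fragment difference of only 0.35. The call of Cited2 ended without RelA(TA2) replicate 1 (adjusted p = 0.0805), RelA(wt) replicate 1 (0.104) or RelA(wt) replicate 2 (0.0983), and that of Ncoa1 without RelA(TA2) replicate 2 (adjusted p = 0.0759), RelA(wt) replicate 1 (0.0588) or RelA(wt) replicate 2 (0.0573).

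Of 10 NF-κB subunit and inhibitor genes Rela alone was called on FPKM, and on fragments 2 were higher and 1 lower. Nfkbia, which encodes the inhibitor IκBα and is an NF-κB target, had 14.3 and 17.1 FPKM in RelA(TA2) against 34.1 and 14.2 FPKM in RelA(wt) cells (log2 -0.48, SE 0.32, adjusted p = 0.533 from limma). Nfkb1, which encodes p105 and p50, had 15.7 and 13.1 FPKM in RelA(TA2) against 41.0 and 15.1 FPKM in RelA(wt) cells (log2 -0.78, SE 0.32, adjusted p = 0.258). For both genes RelA(wt) replicate 1 stood far above the other 3 libraries, and the fragment difference of Nfkbia had the other sign (log2 0.28, adjusted p = 0.143). Nfkb2, which encodes p100 and p52, had 99.5 and 92.1 FPKM in RelA(TA2) against 52.2 and 52.2 FPKM in RelA(wt) cells (log2 0.87, SE 0.32, adjusted p = 0.208), while its fragments were lower (log2 -0.23, adjusted p = 0.0226), so the direction depended on the measure. None of the 30 genes from the TNF receptor to the IκB kinase was called, at a median log2 difference of 0.08, against 0.02 over all genes tested, and on fragments 5 were higher and 4 lower, shares near those of all genes (12.9% and 10.7%). Tnfaip3, which encodes the feedback inhibitor A20, had 5.94 and 6.77 FPKM in RelA(TA2) against 7.18 and 3.29 FPKM in RelA(wt) cells (log2 0.34, SE 0.25, adjusted p = 0.578) and passed on fragments (log2 1.01, adjusted p = 3.8e-05).

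Promoters of the called genes were searched for the κB motif, the site that NF-κB dimers bind, on both strands from 250 bases before to 50 bases after the annotated start (RefSeq, GRCm38.p6). A window was found for 9804 of the 12271 genes tested, of which 12.5% held the motif. Among genes called on both measures it was in 21 of 162 windows of the higher genes (13.0%) and in 12 of 113 windows of the lower genes (10.6%), both near the share of all genes tested. The CArG box, to which SRF binds, was in 6 of the 162 windows (3.70%) and 1 of the 113 (0.885%), against 1.5% of all genes tested. It was in 5 of 25 windows of the actin genes described below (20%), called or not. That list was chosen to hold SRF targets, so its share says nothing on the difference between the lines. The AP-1 motif TGANTCA was in 11 of the 162 (6.79%) and 17 of the 113 (15%), against 6.39%. A match is a run of letters, not a bound site.

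Of the called genes that hold the κB motif, windows are shown for the 2 higher genes and the 1 lower gene of largest difference, and for Myl9, a called actin gene with a CArG box, each with the motif in capitals. Lamb3, a laminin chain, was at 2.55 and 7.43 FPKM in RelA(TA2) and at 0 in both RelA(wt) libraries, a call lost without RelA(TA2) replicate 2 (adjusted p = 0.0677) or RelA(wt) replicate 1 (0.0543) in limma, and its motif lies after the start (chr1:193301744-193302043, plus strand). Tmem176b, a membrane protein of endosomes, had 45.0 and 42.5 FPKM in RelA(TA2) against 10.4 and 9.32 FPKM in RelA(wt) cells (log2 2.10, SE 0.14, adjusted p = 2.05e-05), with the motif 32 bases before the start (chr6:48841325-48841624, minus strand). Hecw2, a ubiquitin ligase, had 0.956 and 0 FPKM in RelA(TA2) against 20 and 4.75 FPKM in RelA(wt) cells, a call lost without RelA(TA2) replicate 2 (adjusted p = 0.0804) or RelA(wt) replicate 1 (0.0747) in limma, with the motif 114 bases before the start (chr1:54194985-54195284, minus strand). Myl9, a myosin light chain, has its CArG box 161 bases before the start (chr2:156775214-156775513, plus strand), and its values follow with the actin genes.
Lamb3: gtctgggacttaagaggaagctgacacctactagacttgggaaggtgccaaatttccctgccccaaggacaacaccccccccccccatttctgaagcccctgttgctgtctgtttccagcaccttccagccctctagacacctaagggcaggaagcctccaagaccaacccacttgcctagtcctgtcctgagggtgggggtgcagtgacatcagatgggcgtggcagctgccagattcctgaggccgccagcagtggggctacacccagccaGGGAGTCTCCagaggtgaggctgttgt
Tmem176b: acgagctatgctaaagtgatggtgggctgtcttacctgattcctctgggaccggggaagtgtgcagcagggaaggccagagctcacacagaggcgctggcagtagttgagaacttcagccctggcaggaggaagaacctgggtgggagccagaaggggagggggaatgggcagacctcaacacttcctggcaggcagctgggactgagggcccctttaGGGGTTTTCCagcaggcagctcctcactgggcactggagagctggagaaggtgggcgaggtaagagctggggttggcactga
Hecw2: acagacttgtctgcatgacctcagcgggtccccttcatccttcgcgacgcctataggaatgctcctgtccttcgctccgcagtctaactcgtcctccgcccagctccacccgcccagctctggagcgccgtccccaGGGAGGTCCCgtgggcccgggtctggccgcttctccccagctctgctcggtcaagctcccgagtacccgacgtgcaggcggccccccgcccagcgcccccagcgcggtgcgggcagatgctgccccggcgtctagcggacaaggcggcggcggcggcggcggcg
Myl9: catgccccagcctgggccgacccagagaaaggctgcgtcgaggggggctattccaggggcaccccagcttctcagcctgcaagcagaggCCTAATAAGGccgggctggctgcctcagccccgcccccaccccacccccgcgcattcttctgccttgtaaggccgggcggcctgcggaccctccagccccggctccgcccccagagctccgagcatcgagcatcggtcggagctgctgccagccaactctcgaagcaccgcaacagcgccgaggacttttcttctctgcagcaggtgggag

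Extracellular matrix genes held more calls in number than any other list, though their list was also among the largest. Of 61 tested, 12 were higher in RelA(TA2) cells and 2 lower, with a median log2 difference of 0.25, against 0.02 over all genes. Fn1, the fibronectin to which cells attach, had 597 and 767 FPKM in RelA(TA2) against 275 and 302 FPKM in RelA(wt) cells. Its means were 682 ± 120 FPKM in RelA(TA2) and 289 ± 19.1 FPKM in RelA(wt) cells (SD, n = 2 each) (log2 1.23, SE 0.11, adjusted p = 0.00014 from limma). Thbs1, a thrombospondin that binds matrix and activates latent TGF-β, had 157 and 107 FPKM in RelA(TA2) against 34.8 and 38.9 FPKM in RelA(wt) cells (log2 1.8, SE 0.20, adjusted p = 0.000813). Both RelA(TA2) libraries stood well above both RelA(wt) libraries for either gene. The fibulins, which build elastic fibres and basement membranes, moved alike. Fbln2 had 708 and 707 FPKM in RelA(TA2) against 309 and 334 FPKM in RelA(wt) cells (log2 1.14, SE 0.10, adjusted p = 0.000125), and Fbln5 had 167 and 183 FPKM in RelA(TA2) against 73.0 and 67.8 FPKM in RelA(wt) cells (log2 1.31, SE 0.15, adjusted p = 0.000805). Fbln1 was also called (log2 0.51, adjusted p = 0.0145). Bgn, the proteoglycan biglycan, had 343 and 357 FPKM in RelA(TA2) against 203 and 212 FPKM in RelA(wt) cells (log2 0.75, SE 0.06, adjusted p = 0.000136). Enzymes that cross-link collagen and elastin were higher too, with 66.8 and 58.3 FPKM in RelA(TA2) against 34.0 and 31.0 FPKM in RelA(wt) cells for Lox (log2 0.93, SE 0.10, adjusted p = 0.00045). Loxl2 had 14.4 and 13.1 FPKM in RelA(TA2) against 7.38 and 7.63 FPKM in RelA(wt) cells (log2 0.83, SE 0.09, adjusted p = 0.000919). The type I collagen chain Col1a2 was higher, with 845 and 890 FPKM in RelA(TA2) against 612 and 626 FPKM in RelA(wt) cells (log2 0.49, SE 0.09, adjusted p = 0.0126), and Col8a1 was called as well (log2 0.54, adjusted p = 0.0047). Sparc, a collagen-binding glycoprotein, had 402 and 512 FPKM in RelA(TA2) against 286 and 305 FPKM in RelA(wt) cells (log2 0.62, SE 0.13, adjusted p = 0.0315), and the last of the 12 was the laminin chain gene Lamb1 (log2 0.49, adjusted p = 0.0387). The calls of Fn1, Thbs1, Fbln2, Fbln5, Bgn, Lox and Loxl2 were made without each library in turn, while that of Col1a2 ended without RelA(TA2) replicate 2 (adjusted p = 0.0588) or RelA(wt) replicate 1 (0.0695) and that of Sparc without RelA(TA2) replicate 2 (adjusted p = 0.146), RelA(wt) replicate 1 (0.145) or RelA(wt) replicate 2 (0.0764).

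The 2 lower matrix genes depended on the measure. Lama5, a laminin chain of basement membranes, had 9.88 and 9.38 FPKM in RelA(TA2) against 23.6 and 25.3 FPKM in RelA(wt) cells (log2 -1.30, SE 0.29, adjusted p = 0.0372 from limma), while its fragment difference had the other sign (log2 0.55, adjusted p = 0.115). Col4a2, a basement membrane collagen, had 30.8 and 29.4 FPKM in RelA(TA2) against 73.7 and 83.0 FPKM in RelA(wt) cells (log2 -1.36, SE 0.31, adjusted p = 0.0398) and a smaller difference on fragments (log2 -0.40, adjusted p = 0.0163). The call of Lama5 ended without any 1 of the 4 libraries (adjusted p 0.0775 to 0.137) and that of Col4a2 without any 1 of the 4 libraries (adjusted p 0.0851 to 0.155). On fragments 27 genes of the list were higher and 10 lower, and in the libraries at 1 h and 2 h of TNFα 10 and 12 were higher and 0 and 1 lower on FPKM.

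**Figure D2:**
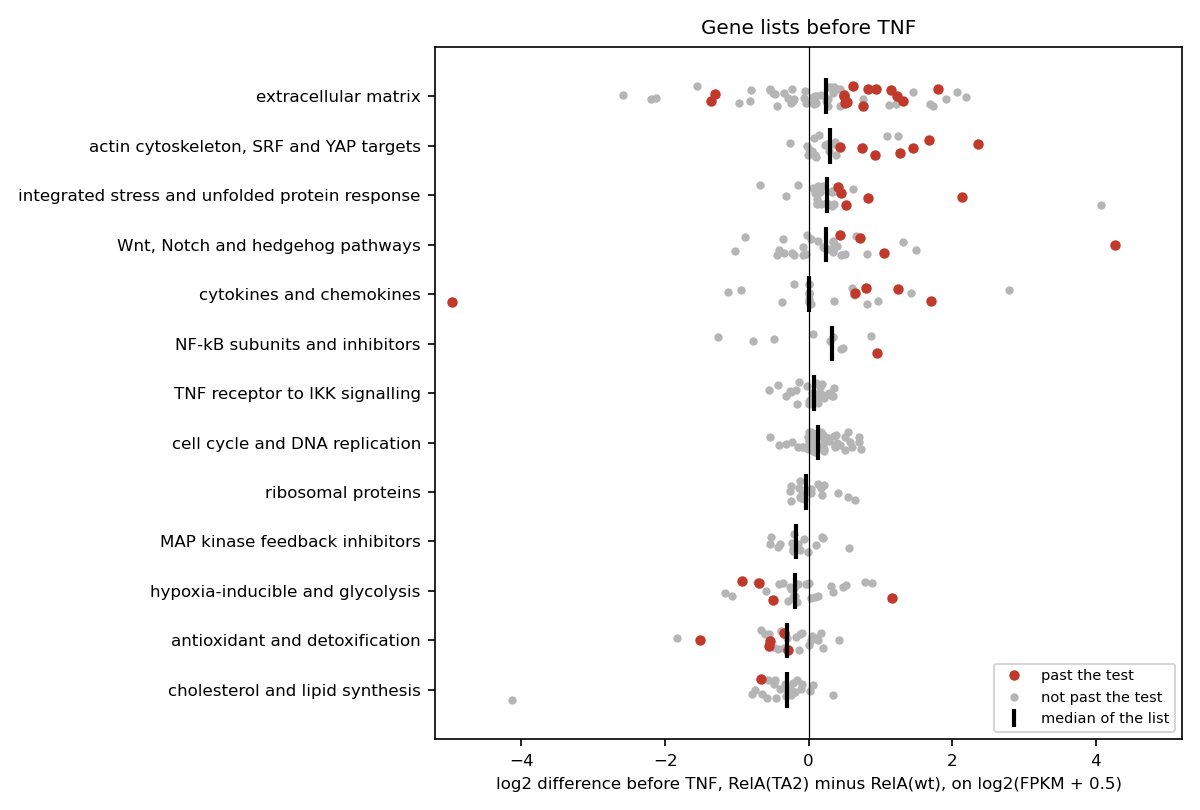
Log2 differences before TNFα, RelA(TA2) minus RelA(wt), for the genes of 13 lists, with 1 point per gene, red where the gene passed the test, and a black bar at each list's median. The medians of the matrix and actin lists lie at 0.25 and 0.29, and those of the antioxidant and cholesterol lists at -0.30 each.

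Genes of the actin cytoskeleton, many of them targets of SRF or YAP, leaned the same way. Of 28 tested, 7 were higher and 0 lower, 24 were positive in sign, and the median log2 difference was 0.29. Acta2, the smooth muscle actin of contractile fibroblasts, had 123 and 130 FPKM in RelA(TA2) against 53.1 and 28.9 FPKM in RelA(wt) cells (log2 1.68, SE 0.28, adjusted p = 0.00868 from limma) and a larger difference on fragments (log2 2.29, adjusted p = 6.19e-08). Lats2, a kinase that restrains YAP, had 15.7 and 14.8 FPKM in RelA(TA2) against 8.62 and 9.26 FPKM in RelA(wt) cells (log2 0.74, SE 0.11, adjusted p = 0.00394). Lmod1, a protein that starts actin filaments in smooth muscle, was at 1.20 and 3.37 FPKM in RelA(TA2) and at 0 in both libraries of RelA(wt). These calls were made without each library in turn. Amotl2, a junction protein that binds YAP, had 25 and 17.6 FPKM in RelA(TA2) against 8.06 and 8.71 FPKM in RelA(wt) cells (log2 1.27, SE 0.26, adjusted p = 0.0267). Myl9 had 5.17 and 8.09 FPKM in RelA(TA2) against 2.46 and 1.69 FPKM in RelA(wt) cells (log2 1.46, SE 0.34, adjusted p = 0.0458), and Tagln, an actin-binding protein of contractile cells, had 55.3 and 63.6 FPKM in RelA(TA2) against 36.8 and 25.9 FPKM in RelA(wt) cells (log2 0.93, SE 0.22, adjusted p = 0.0474). The lines did not overlap for these genes either, but the call of Amotl2 ended without RelA(TA2) replicate 1 (adjusted p = 0.0999), RelA(wt) replicate 1 (0.12) or RelA(wt) replicate 2 (0.0779), that of Myl9 without RelA(TA2) replicate 2 (adjusted p = 0.217), RelA(wt) replicate 1 (0.0857) or RelA(wt) replicate 2 (0.2) and that of Tagln without RelA(TA2) replicate 1 (adjusted p = 0.0671), RelA(TA2) replicate 2 (0.192) or RelA(wt) replicate 2 (0.227). Csrp1, a LIM protein of actin bundles, was the seventh (log2 0.44, adjusted p = 0.0358). Ctgf and Cyr61, secreted YAP targets, did not pass on FPKM, with 5.67 and 9.54 FPKM in RelA(TA2) against 4.85 and 6.57 FPKM in RelA(wt) cells for Ctgf (log2 0.36, SE 0.51, adjusted p = 0.834). Cyr61 had 124 and 79.1 FPKM in RelA(TA2) against 42.8 and 49.9 FPKM in RelA(wt) cells (log2 1.09, SE 0.46, adjusted p = 0.264). Both passed on fragments (log2 1.64 and 1.06, adjusted p = 0.00129 and 0.00631 in limma), where 17 of 27 genes of the list were higher and 0 lower. Fhl2, a LIM protein outside the list that links the cytoskeleton to transcription, had 126 and 50.6 FPKM in RelA(TA2) against 27.5 and 28 FPKM in RelA(wt) cells (log2 1.51, SE 0.29, adjusted p = 0.0206; log2 0.74, adjusted p = 6.33e-05 on fragments), a call lost without RelA(wt) replicate 1 (adjusted p = 0.0888) or RelA(wt) replicate 2 (0.0735). The 10 muscle markers summed to 9.95 to 14.2 FPKM in RelA(TA2) against 28.2 to 64.4 FPKM in RelA(wt) cells (none called). Of them Chrna1 had 1.31 and 1.49 FPKM in RelA(TA2) against 56.7 and 17.6 FPKM in RelA(wt) cells. Transcripts of at least 300 bases alone gave it 1.58 and 4.52 FPKM in RelA(wt) cells. On fragments 1 of 3 muscle markers tested was higher and 0 lower, at a median log2 difference of 0.80, so the direction depended on the measure.

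Secreted immune signals differed before any cytokine was added. Of 25 cytokine and chemokine genes tested, 4 were higher and 1 lower in RelA(TA2) cells, where 1.92% and 1.30% of all genes were. Of the 25, 11 were at 0 in both libraries of a line. Ccl7, a chemokine for monocytes, had 50.2 and 77.4 FPKM in RelA(TA2) against 18.4 and 19.1 FPKM in RelA(wt) cells (log2 1.71, SE 0.19, adjusted p = 0.000886 from limma). Cxcl12, the chemokine by which stromal cells retain blood progenitors, had 57.6 and 54.2 FPKM in RelA(TA2) against 21.6 and 25.2 FPKM in RelA(wt) cells (log2 1.24, SE 0.17, adjusted p = 0.00362). Both calls were made without each library in turn. Ccl2, a related monocyte chemokine, had 201 and 215 FPKM in RelA(TA2) against 138 and 135 FPKM in RelA(wt) cells, which did not pass on FPKM (log2 0.60, SE 0.20, adjusted p = 0.156) and passed on fragments (log2 0.79, adjusted p = 0.00241). Csf1, the growth factor of macrophages, had 34.3 and 39.2 FPKM in RelA(TA2) against 23.6 and 23.1 FPKM in RelA(wt) cells (log2 0.64, SE 0.11, adjusted p = 0.0101). Tnfsf9, the ligand of 4-1BB on T cells, had 14.4 and 17.3 FPKM in RelA(TA2) against 8.95 and 8.68 FPKM in RelA(wt) cells (log2 0.80, SE 0.14, adjusted p = 0.012). The call of Csf1 ended without RelA(TA2) replicate 2 (adjusted p = 0.0579) and that of Tnfsf9 without RelA(TA2) replicate 2 (adjusted p = 0.068), RelA(wt) replicate 1 (0.0511) or RelA(wt) replicate 2 (0.0545). Il11, a cytokine of the IL-6 type, was listed at 1.75 and 0 FPKM in RelA(TA2) against 17.5 and 61.1 FPKM in RelA(wt) cells, but on fragments it did not pass (log2 -0.85, adjusted p = 0.325), with 0.562 and 0 in RelA(TA2) against 1.44 and 0.385 in RelA(wt) cells per M.

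Of 22 innate defence and acute phase genes 2 were higher and 1 lower on FPKM, where 1.92% and 1.30% of all genes were. On fragments 4 of 21 were higher and 4 lower, where 12.9% and 10.7% of all genes were. Ptgs2, which encodes the prostaglandin synthase COX-2, had 82.5 and 32.1 FPKM in RelA(TA2) against 10.7 and 11.1 FPKM in RelA(wt) cells (log2 2.19, SE 0.32, adjusted p = 0.00423 from limma). The RelA(TA2) libraries were unequal in FPKM but close in fragments, with 148 and 147 in RelA(TA2) against 51.9 and 51.6 in RelA(wt) cells per M. Irak2, a kinase of the interleukin-1 and Toll-like receptors, had 15.8 and 16.0 FPKM in RelA(TA2) against 5.60 and 6.26 FPKM in RelA(wt) cells (log2 1.35, SE 0.16, adjusted p = 0.00144). Both calls were made without each library in turn. Ticam1, the adaptor of Toll-like receptors also called TRIF, was the lower gene, with 7.36 and 10.8 FPKM in RelA(TA2) against 14.9 and 13.5 FPKM in RelA(wt) cells (log2 -0.64, SE 0.15, adjusted p = 0.0498), a call lost without RelA(TA2) replicate 1 (adjusted p = 0.138), RelA(wt) replicate 1 (0.22) or RelA(wt) replicate 2 (0.102). Of 36 interferon-stimulated and antigen-processing genes 2 were higher and 1 lower. Ifit3, an interferon-induced antiviral gene, had 7.70 and 7.18 FPKM in RelA(TA2) against 15.7 and 16.2 FPKM in RelA(wt) cells (log2 -1.05, SE 0.23, adjusted p = 0.0339), a call lost without any 1 of the 4 libraries (adjusted p 0.0638 to 0.126). H2-D1, a class I molecule that presents peptides, had 586 and 657 FPKM in RelA(TA2) against 405 and 485 FPKM in RelA(wt) cells (log2 0.49, SE 0.10, adjusted p = 0.0335), a call lost without RelA(TA2) replicate 2 (adjusted p = 0.147) or RelA(wt) replicate 1 (0.183), and its reads may be shared with close relatives. Among 25 cytokine receptor genes, Il1rl1, the receptor of interleukin-33, had 1210 and 1090 FPKM in RelA(TA2) against 886 and 820 FPKM in RelA(wt) cells (log2 0.43, SE 0.09, adjusted p = 0.0335). Il13ra1, a chain of the interleukin-13 receptor, was at 0 in both libraries of RelA(TA2) and at 4.29 and 1.02 FPKM in those of RelA(wt). The call of Il1rl1 ended without RelA(TA2) replicate 1 (adjusted p = 0.104), RelA(wt) replicate 1 (0.0712) or RelA(wt) replicate 2 (0.155) and that of Il13ra1 without RelA(TA2) replicate 1 (adjusted p = 0.0842), RelA(TA2) replicate 2 (0.119) or RelA(wt) replicate 1 (0.193).

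Transcription factors of the immediate-early response were split, with 3 higher and 4 lower of 26 tested. Atf3, a stress-induced factor of the ATF family, had 1.78 and 2.66 FPKM in RelA(TA2) against 20.9 and 16.7 FPKM in RelA(wt) cells (log2 -2.84, SE 0.27, adjusted p = 0.000273 from limma), a call made without each library in turn. Myc, a driver of growth genes, had 32.7 and 33.1 FPKM in RelA(TA2) against 17.8 and 19.7 FPKM in RelA(wt) cells (log2 0.80, SE 0.13, adjusted p = 0.0075). Junb, an AP-1 subunit, had 33.7 and 43.4 FPKM in RelA(TA2) against 17.9 and 19.8 FPKM in RelA(wt) cells (log2 1.00, SE 0.21, adjusted p = 0.028), and the zinc finger factor gene Klf6 had 46.1 and 41.1 FPKM in RelA(TA2) against 31.8 and 32.0 FPKM in RelA(wt) cells (log2 0.44, SE 0.10, adjusted p = 0.042). The call of Myc ended without RelA(wt) replicate 1 (adjusted p = 0.0525), that of Junb without RelA(TA2) replicate 2 (adjusted p = 0.141), RelA(wt) replicate 1 (0.132) or RelA(wt) replicate 2 (0.07) and that of Klf6 without any 1 of the 4 libraries (adjusted p 0.0513 to 0.153). Klf9, another zinc finger factor, was lower, with 13.8 and 16.5 FPKM in RelA(TA2) against 33.7 and 26.5 FPKM in RelA(wt) cells (log2 -0.96, SE 0.18, adjusted p = 0.0172), a call lost without RelA(TA2) replicate 1 (adjusted p = 0.0638) or RelA(wt) replicate 1 (0.112). The remaining lower genes, Maff and Jund, were lower on FPKM (log2 -1.48 and -1.33) but did not pass on fragments (log2 -0.09 and -0.36, adjusted p = 0.526 and 0.193 in limma). None of 16 MAP kinase feedback inhibitors was called on FPKM, at a median of -0.18. On fragments 1 was higher and 5 lower, where 12.9% and 10.7% of all genes were.

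Growth factor genes went both ways, 4 higher and 3 lower of 46 tested. Gas6, the ligand of the receptor kinase Axl, had 18.8 and 23.9 FPKM in RelA(TA2) against 9.38 and 8.97 FPKM in RelA(wt) cells (log2 1.16, SE 0.11, adjusted p = 0.000285 from limma). Fgf7, which fibroblasts make for epithelia, had 33.6 and 25.8 FPKM in RelA(TA2) against 15.3 and 12.8 FPKM in RelA(wt) cells (log2 1.04, SE 0.17, adjusted p = 0.00708), and Vegfc, a growth factor of lymphatic vessels, had 16.4 and 22.6 FPKM in RelA(TA2) against 8.92 and 10.1 FPKM in RelA(wt) cells (log2 0.98, SE 0.15, adjusted p = 0.00583). Areg, a ligand of the EGF receptor, was lower, with 5.23 and 5.48 FPKM in RelA(TA2) against 10.8 and 11.4 FPKM in RelA(wt) cells (log2 -0.99, SE 0.14, adjusted p = 0.00394). These calls were made without each library in turn. In the TGF-β and BMP list of 32 genes, Fstl1, a secreted glycoprotein, was the 1 higher gene, with 131 and 137 FPKM in RelA(TA2) against 76.7 and 75.7 FPKM in RelA(wt) cells (log2 0.81, SE 0.06, adjusted p = 5.51e-05). The 3 lower genes were Smad9, which carries BMP signals, and Id2 and Id3, BMP targets that block basic helix-loop-helix factors. The list as a whole did not lean lower, with 20 of the 32 genes positive in sign and a median of 0.20. On fragments 6 of 29 tested were higher and 4 lower. Id2 had 9.55 and 6.82 FPKM in RelA(TA2) against 43.8 and 19.6 FPKM in RelA(wt) cells (log2 -1.8, SE 0.31, adjusted p = 0.0105), and Id3 had 15.8 and 11.7 FPKM in RelA(TA2) against 33.3 and 30.0 FPKM in RelA(wt) cells (log2 -1.19, SE 0.26, adjusted p = 0.0342). On fragments the differences of Smad9 (log2 -1.79, adjusted p = 0.00276, against log2 -2.76 on FPKM) and Id2 (log2 -1.21, adjusted p = 0.000463) were smaller. The call of Smad9 ended without RelA(TA2) replicate 2 (adjusted p = 0.0602), RelA(wt) replicate 1 (0.0511) or RelA(wt) replicate 2 (0.07), that of Id2 without RelA(TA2) replicate 2 (adjusted p = 0.0651) and that of Id3 without RelA(TA2) replicate 2 (adjusted p = 0.169), RelA(wt) replicate 1 (0.152) or RelA(wt) replicate 2 (0.088).

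Of 33 Wnt, Notch and hedgehog genes 4 were higher and 0 lower, where 1.92% and 1.30% of all genes were. On fragments 12 were higher and 1 lower, where 12.9% and 10.7% of all genes were. Fzd2, a Wnt receptor, had 20.2 and 24.0 FPKM in RelA(TA2) against 9.23 and 11.6 FPKM in RelA(wt) cells (log2 1.05, SE 0.14, adjusted p = 0.00302 from limma), a call made without each library in turn. Sfrp1, a secreted Wnt antagonist, was at 5.95 and 13.7 FPKM in RelA(TA2) and at 0 in both RelA(wt) libraries, a call lost without any 1 of the 4 libraries (adjusted p 0.0547 to 0.192). Sox4, a factor of progenitor cells, was among 3 higher genes of 72 patterning factors, with 22.3 and 21.3 FPKM in RelA(TA2) against 11.8 and 12.4 FPKM in RelA(wt) cells (log2 0.82, SE 0.09, adjusted p = 0.00083). Adhesion molecules and matrix proteases were evenly divided, 4 higher and 4 lower of 42. Itga7, an integrin chain that binds laminin, had 15.6 and 17.9 FPKM in RelA(TA2) against 6.98 and 7.10 FPKM in RelA(wt) cells (log2 1.19, SE 0.10, adjusted p = 0.00012). Itga11, a collagen-binding integrin chain, was at 0 in both libraries of RelA(TA2) and at 3.15 and 5.68 FPKM in those of RelA(wt). Timp3, an inhibitor of metalloproteases, had 80.0 and 97.5 FPKM in RelA(TA2) against 56.5 and 56.9 FPKM in RelA(wt) cells (log2 0.64, SE 0.13, adjusted p = 0.024), and Cd44, the receptor of hyaluronan, had 118 and 82.3 FPKM in RelA(TA2) against 152 and 150 FPKM in RelA(wt) cells (log2 -0.61, SE 0.14, adjusted p = 0.0437). The call of Timp3 ended without RelA(TA2) replicate 2 (adjusted p = 0.125), RelA(wt) replicate 1 (0.1) or RelA(wt) replicate 2 (0.0837) and that of Cd44 without RelA(TA2) replicate 2 (adjusted p = 0.147), RelA(wt) replicate 1 (0.164) or RelA(wt) replicate 2 (0.133). Mmp2, a gelatinase, had 25.8 and 36 FPKM in RelA(TA2) against 13.9 and 15.9 FPKM in RelA(wt) cells (log2 1.01, SE 0.14, adjusted p = 0.0034), with no difference past the test on fragments (log2 -0.13, adjusted p = 0.532).

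Stress responses differed by branch. In the integrated stress and unfolded protein response 5 of 26 genes were higher, 0 were lower, 23 were positive in sign and the median was 0.25. Atf4, the central factor of the integrated stress response, had 359 and 430 FPKM in RelA(TA2) against 209 and 235 FPKM in RelA(wt) cells (log2 0.82, SE 0.14, adjusted p = 0.00943 from limma). Chac1, an ATF4 target that degrades glutathione, had 14.4 and 36 FPKM in RelA(TA2) against 4.67 and 4.87 FPKM in RelA(wt) cells (log2 2.14, SE 0.47, adjusted p = 0.0355). Pdia6, a disulfide isomerase of the endoplasmic reticulum, had 210 and 236 FPKM in RelA(TA2) against 156 and 154 FPKM in RelA(wt) cells (log2 0.52, SE 0.07, adjusted p = 0.00394), and its relatives in folding Pdia4 and Calr had log2 differences of 0.46 and 0.41. Pdia6 alone of these was called without each library, the call of Atf4 ended without RelA(TA2) replicate 2 (adjusted p = 0.0573) or RelA(wt) replicate 1 (0.0649), that of Chac1 without RelA(TA2) replicate 2 (adjusted p = 0.179), RelA(wt) replicate 1 (0.137) or RelA(wt) replicate 2 (0.114), that of Pdia4 without RelA(wt) replicate 1 (adjusted p = 0.0613) and that of Calr without RelA(TA2) replicate 2 (adjusted p = 0.0952) or RelA(wt) replicate 1 (0.132). Among 15 heat shock genes Hspb8, a small heat shock protein that acts with Bag3 in autophagy, was lower, with 2.80 and 2.67 FPKM in RelA(TA2) against 13.3 and 13.3 FPKM in RelA(wt) cells (log2 -2.10, SE 0.10, adjusted p = 1.57e-06).

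Antioxidant and detoxification genes were the lower counterpart. Of 27 tested, 5 were lower and 0 higher in RelA(TA2) cells, with a median of -0.30, and on fragments 14 of 26 were lower and 1 higher. Mgst1, a membrane-bound glutathione transferase, had 4.19 and 3.93 FPKM in RelA(TA2) against 12.4 and 12.5 FPKM in RelA(wt) cells (log2 -1.51, SE 0.12, adjusted p = 8.42e-05 from limma). Gstm1, a cytosolic glutathione transferase, had 55.1 and 57.8 FPKM in RelA(TA2) against 81.6 and 82.0 FPKM in RelA(wt) cells (log2 -0.53, SE 0.06, adjusted p = 0.000785). Hmox1, which degrades heme and is a target of NRF2, had 172 and 153 FPKM in RelA(TA2) against 227 and 247 FPKM in RelA(wt) cells (log2 -0.55, SE 0.09, adjusted p = 0.00666). These 3 were called without each library in turn. Gstm2, a close relative of Gstm1 with which reads may be shared, and Me1, an enzyme that makes NADPH, differed less (log2 -0.29 and -0.34), and the call of Gstm2 ended without RelA(TA2) replicate 2 (adjusted p = 0.0682), RelA(wt) replicate 1 (0.14) or RelA(wt) replicate 2 (0.056) and that of Me1 without RelA(TA2) replicate 2 (adjusted p = 0.149), RelA(wt) replicate 1 (0.191) or RelA(wt) replicate 2 (0.0613).

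Metabolic genes leaned lower with few calls. Of 27 cholesterol and lipid synthesis genes 3 were positive in sign, and the median was -0.30. Sqle, the squalene epoxidase, was the 1 gene called, with 72.2 and 48.1 FPKM in RelA(TA2) against 91.0 and 96.0 FPKM in RelA(wt) cells (log2 -0.66, SE 0.14, adjusted p = 0.0335 from limma), a call lost without RelA(wt) replicate 1 (adjusted p = 0.0978) or RelA(wt) replicate 2 (0.132). Hmgcs1, an enzyme of the mevalonate pathway, had 65.8 and 35.2 FPKM in RelA(TA2) against 78.6 and 72.9 FPKM in RelA(wt) cells (log2 -0.65, SE 0.23, adjusted p = 0.175). RelA(TA2) replicate 2 was the lowest library for both enzymes. On fragments 9 of the list were lower and 1 higher, where 10.7% and 12.9% of all genes were. Of 31 hypoxia-inducible and glycolysis genes 3 were lower and 1 higher. Ndrg1, a gene induced by hypoxia, had 108 and 74.1 FPKM in RelA(TA2) against 170 and 172 FPKM in RelA(wt) cells (log2 -0.93, SE 0.14, adjusted p = 0.00486), called without each library in turn. The glycolytic enzymes Pgk1 and Aldoa were lower too, with 212 and 166 FPKM in RelA(TA2) against 357 and 260 FPKM in RelA(wt) cells for Pgk1 (log2 -0.70, SE 0.15, adjusted p = 0.0339). Aldoa had 361 and 364 FPKM in RelA(TA2) against 526 and 498 FPKM in RelA(wt) cells (log2 -0.50, SE 0.11, adjusted p = 0.0326). The call of Pgk1 ended without RelA(TA2) replicate 2 (adjusted p = 0.169) or RelA(wt) replicate 1 (0.175) and that of Aldoa without any 1 of the 4 libraries (adjusted p 0.0716 to 0.151). Adm, the vasodilator peptide adrenomedullin, was higher, with 12.1 and 7.94 FPKM in RelA(TA2) against 3.12 and 5.39 FPKM in RelA(wt) cells (log2 1.16, SE 0.25, adjusted p = 0.0335), a call lost without RelA(TA2) replicate 1 (adjusted p = 0.121) or RelA(wt) replicate 1 (0.174).

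Of 28 p53 targets 2 were lower and 0 higher. Perp, a membrane protein of cell junctions, had 16.7 and 15.7 FPKM in RelA(TA2) against 31.5 and 29.6 FPKM in RelA(wt) cells (log2 -0.90, SE 0.08, adjusted p = 0.000235 from limma). Sesn1, a sestrin that restrains mTORC1, had 7.63 and 5.77 FPKM in RelA(TA2) against 25.1 and 23.3 FPKM in RelA(wt) cells (log2 -1.79, SE 0.16, adjusted p = 0.000202), and a smaller difference on fragments (log2 -0.78, adjusted p = 0.00184), with 22.2 and 17.5 in RelA(TA2) against 35 and 33.4 in RelA(wt) cells per M. Neither 51 cell cycle and replication genes, 25 regulators of survival and cell death nor 20 ribosomal protein genes held a call on FPKM, at medians of 0.13, -0.04 and -0.03. On fragments 3 of the cell cycle genes were higher and 0 lower, 2 of the survival genes were higher and 2 lower, and 0 of the ribosomal protein genes were higher and 4 lower, where 12.9% and 10.7% of all genes were.

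The largest differences lay mostly in genes of low level. Cck, which encodes the peptide hormone cholecystokinin, had 9.45 and 8.13 FPKM in RelA(TA2) against 49.1 and 67.6 FPKM in RelA(wt) cells (log2 -2.65, SE 0.19, adjusted p = 3.83e-05 from limma), a call made without each library in turn. Other genes were assembled in 1 line and listed at 0 in the other, and no fold is given for them. Cd24a, a surface sialoglycoprotein, was at 7.29 and 7.82 FPKM in RelA(TA2) and at 0 in both RelA(wt) libraries, and Cdh6, a cadherin, was at 5.86 and 6.26 FPKM in RelA(TA2) and at 0 in both RelA(wt) libraries. Prrg3, a membrane protein with a vitamin K-dependent domain, was at 0 in both libraries of RelA(TA2) and at 7.73 and 7.33 FPKM in those of RelA(wt). Cacna1c, a calcium channel subunit, was at 0 in both libraries of RelA(TA2) and at 9.99 and 8.28 FPKM in those of RelA(wt). These 4 genes were called in the same direction in limma at 1 h and at 2 h.

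A listing at 0 was not always a low level. Prpf39, a splicing factor, was at 0 in both RelA(TA2) libraries before TNFα and at 22.1 and 15.2 FPKM in RelA(wt) cells. At 1 h it had 14.7 and 15.6 FPKM in RelA(TA2) against 0 and 0 FPKM in RelA(wt) cells, and at 2 h 14.4 and 14.8 FPKM in RelA(TA2) against 15.3 and 17.9 FPKM in RelA(wt) cells, so the line listed at 0 differed between the times. Nop14, a ribosome biogenesis factor, had 22.3 and 21.4 FPKM in RelA(TA2) against 785 and 2490 FPKM in RelA(wt) cells, but transcripts of at least 300 bases alone gave 22.3 and 21.4 FPKM in RelA(TA2) against 26.2 and 26.1 FPKM in RelA(wt) cells. Fgfr3, a fibroblast growth factor receptor, was listed at 100 and 116 FPKM in RelA(TA2) against 0 and 0 FPKM in RelA(wt) cells, yet its fragments per M were 0.635 and 0.551 in RelA(TA2) against 0 and 0 in RelA(wt) cells, and none of its FPKM came from transcripts of at least 300 bases.

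The same lines were compared again in libraries that share no sample with those above, at 1 h and 2 h of TNFα. All times were tested in the same fit, so the spread of a gene was shared between them. A gene called before TNFα partly for a small spread is therefore likelier to be called again. The shares called again are not independent of the first call. Most genes called on both measures kept their direction. Of the 204 higher genes 187 were positive in sign at 1 h and 192 at 2 h, and of the 142 lower genes 130 were negative at 1 h and 135 at 2 h. At 1 h 78 of the 204 were called higher (38.2%), where 1.14% of all genes were, and 76 of the 142 were called lower (53.5%), where 1.61% of all genes were. At 2 h 83 of the 204 were called higher (40.7%), where 1.48% of all genes were, and 75 of the 142 were called lower (52.8%), where 1.57% of all genes were. Calls in the opposite direction numbered 2 and 2 at 1 h and 1 and 2 at 2 h. The median log2 difference of the 204 was 0.76 before TNFα, 0.38 at 1 h and 0.42 at 2 h, and that of the 142 was -0.96, -0.61 and -0.58. The genes were chosen by the libraries before TNFα, which tends to enlarge the medians there. These medians therefore cannot show whether the differences shrank under TNFα. Of the genes called on FPKM only, 1 of 32 higher and 2 of 18 lower were called the same way at 1 h.

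**Figure D3:**
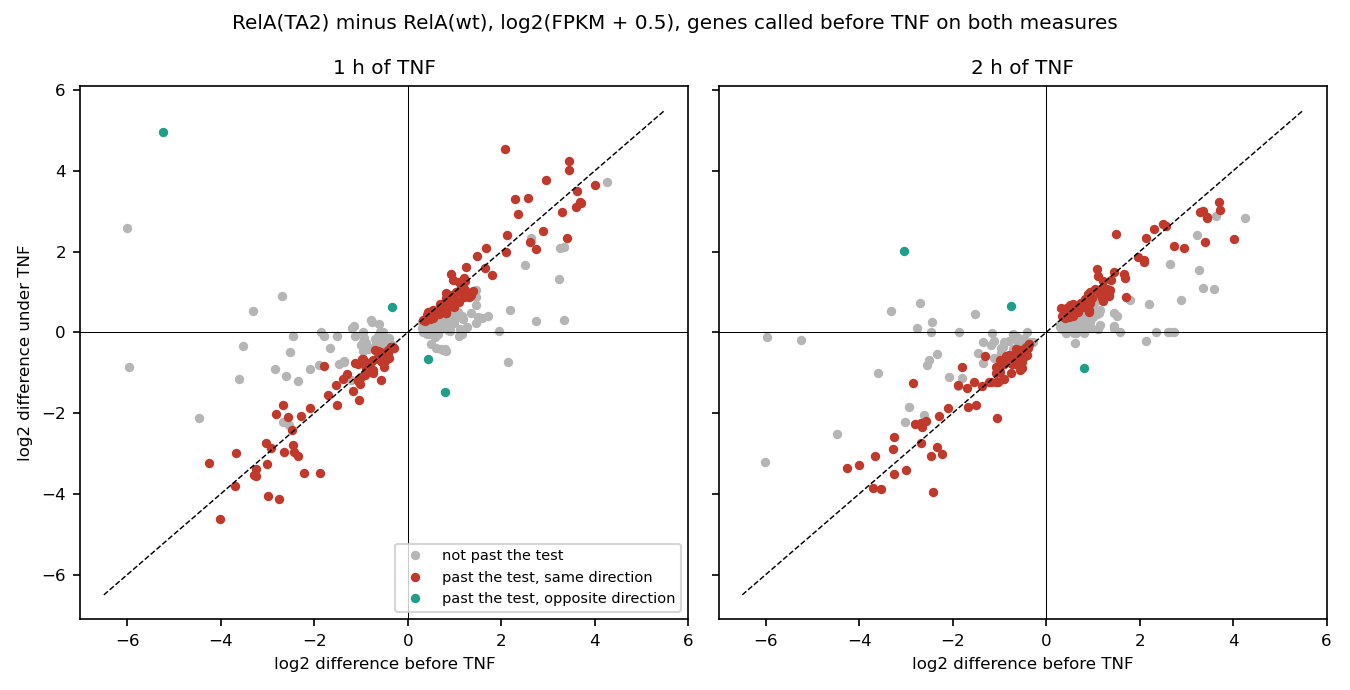
Log2 difference between RelA(TA2) and RelA(wt) at 1 h and at 2 h of TNFα (vertical axes) against that before TNFα (horizontal axes), with 1 point per gene called before TNFα on both measures, red where it was called in the same direction and green where in the opposite direction, and a dashed line at equal differences. Most points lie at the lower left and upper right, and at 1 h 78 higher and 76 lower genes are red.

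The standing differences met the TNFα response in different ways. Fn1 kept a difference close to the first, at 1 h (log2 1.27, adjusted p = 9.85e-05 from limma) and at 2 h (log2 0.93, adjusted p = 0.00129). Cxcl12 was also higher at 1 h (log2 1.63, adjusted p = 0.000527) and 2 h (log2 0.91, adjusted p = 0.0204). Ptgs2 was not called on FPKM at 1 h (log2 0.55, adjusted p = 0.488) or 2 h (log2 0.69, adjusted p = 0.331). Both RelA(TA2) libraries still stood above both RelA(wt) libraries, with 170 and 184 FPKM in RelA(TA2) against 115 and 128 FPKM in RelA(wt) cells at 1 h. On fragments Ptgs2 was called higher at 1 h (log2 0.60, adjusted p = 0.00152 in limma) and 2 h (log2 0.69, adjusted p = 0.000591). Its fragment difference was smaller than before TNFα (log2 -0.91 and -0.81, adjusted p = 0.0112 and 0.0374 for the change). Tnfsf9 was higher in RelA(TA2) cells before TNFα but at 1 h had 15.7 and 15 FPKM in RelA(TA2) against 44.5 and 42.0 FPKM in RelA(wt) cells. The change of its difference passed the test of the change itself (log2 -2.27, adjusted p = 0.000911). Myc had 59.3 and 66.6 FPKM in RelA(TA2) against 91.0 and 78.4 FPKM in RelA(wt) cells at 1 h (log2 -1.22, adjusted p = 0.0185 for the change), and Klf6 had 109 and 129 FPKM in RelA(TA2) against 184 and 192 FPKM in RelA(wt) cells (log2 -1.11, adjusted p = 0.00923 for the change). The means of these 3 genes thus stood higher in RelA(TA2) cells at the start and below RelA(wt) at 1 h. At 1 h itself the lower level passed the test for Tnfsf9 and Klf6 (adjusted p = 0.000303 and 0.00552 in limma). It did not for Myc (log2 -0.42, adjusted p = 0.127). In all, the difference changed upward in 18 genes and downward in 18 at 1 h on FPKM, and in 8 and 17 at 2 h. On fragments it changed upward in 71 genes and downward in 149 at 1 h, and in 10 and 25 at 2 h, so an even split at 1 h was seen on FPKM alone.

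**Figure D4:**
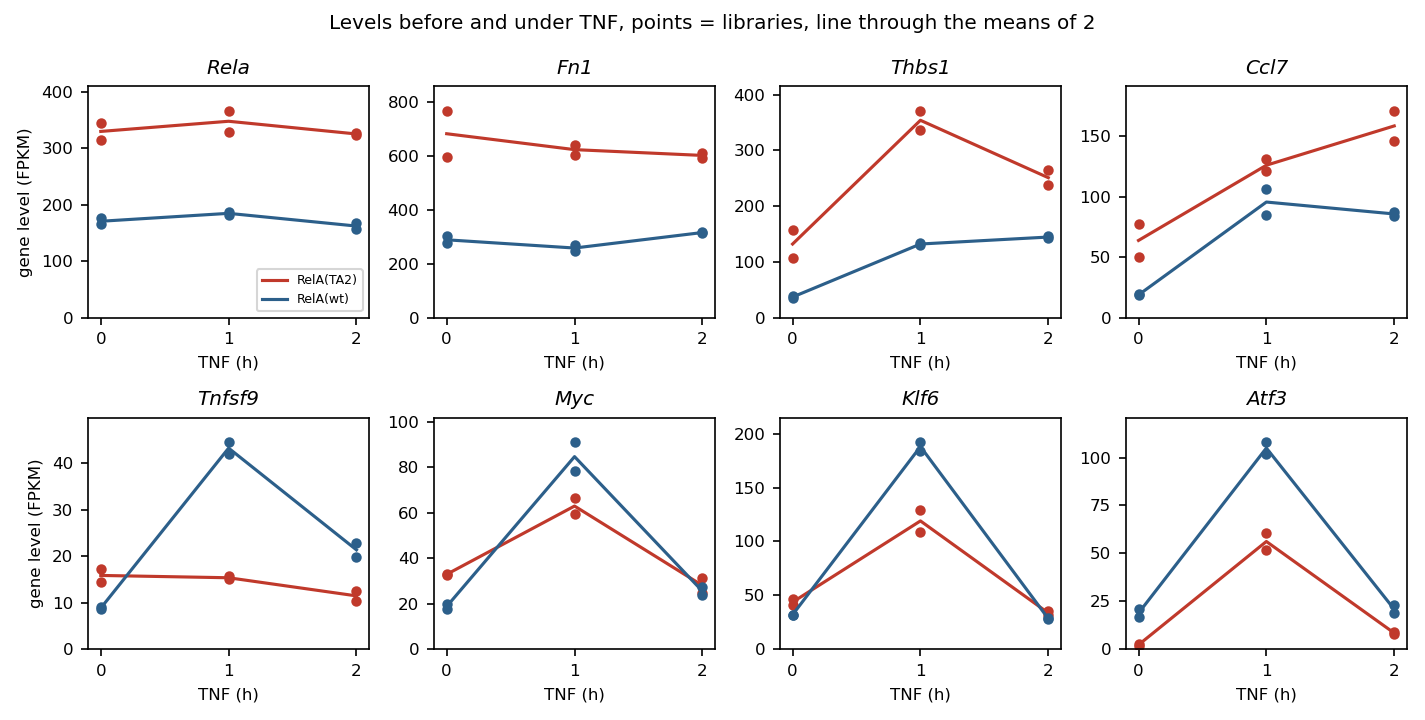
Levels in FPKM of 8 genes in RelA(TA2) and RelA(wt) cells before TNFα and at 1 h and 2 h, with points for libraries and lines through the means of 2 libraries. RelA(TA2) lies above RelA(wt) at each time for Rela, Fn1, Thbs1 and Ccl7 and below it for Atf3, while the lines cross between 0 and 1 h for Tnfsf9, Myc and Klf6.

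Genes that respond to TNFα were taken from the RelA(Ser276Ala) line, whose libraries enter neither side of the comparison. They do enter the same fit and its shared spread, so the calls below are not independent of the choice of genes. In RelA(Ser276Ala) cells 84 genes rose at least 2-fold at 1 h with an adjusted p under 0.05 in limma. Before TNFα 12 of them stood above RelA(wt) in the RelA(TA2) line (14.3%, against 1.92% of all genes) and 5 stood below it (5.95%, against 1.30%). Higher were Ccl7, Chac1, Cited2, Cpeb3, Filip1l, Junb, Klf6, Myc, Ptgs2, Rgs16, Rnd3 and Thbs1, and lower were Areg, Atf3, Id3, Sgk1 and Trib1. The median log2 difference was 0.18, with 48 of the 84 positive in sign. Of the 84, 12 had no transcript assembled in any of the 4 libraries compared, so they have no direction. On fragments 27 of 80 were higher and 13 lower, where 12.9% and 10.7% of all genes were.

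RelA(Ser276Ala) cells before TNFα gave a further reference. Against them 234 genes were higher in RelA(TA2) cells (1.91%) and 172 lower (1.40%), a comparison that shares the RelA(TA2) libraries with the one against RelA(wt). Of the matrix genes 19 were higher and 1 lower than in RelA(Ser276Ala), and of the actin genes 6 and 0. Single genes placed RelA(Ser276Ala) differently. Fn1 had 290 and 296 FPKM in RelA(Ser276Ala) cells, within the range of RelA(wt), and Thbs1 had 37.7 and 42.2 FPKM, close to it. Bgn had 427 and 451 FPKM, above both other lines, and Sesn1 had 8.18 and 7.56 FPKM, close to RelA(TA2) (log2 -0.23, adjusted p = 0.55 from limma for RelA(TA2) minus RelA(Ser276Ala)). Ccl7 was lowest in RelA(Ser276Ala), at 7.49 and 8.01 FPKM, as was Tmem176b, at 3.01 and 2.54 FPKM. Cacna1c and Prrg3 were at 0 in both RelA(Ser276Ala) libraries, as in RelA(TA2).

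The differences were not even over the chromosomes. On the X chromosome the median log2 difference on fragments was -0.19 over 406 genes before TNFα, with 303 of them negative, -0.20 at 1 h and -0.21 at 2 h, while RelA(Ser276Ala) differed from RelA(wt) there by a median of 0.03. On FPKM 20 of 416 genes tested on X were lower (4.81%) and 7 higher (1.68%). Chromosome 14 had a fragment median of -0.175 before TNFα, with 15 of 410 genes lower on FPKM (3.66%) and 3 higher. There RelA(Ser276Ala) differed from RelA(wt) by a median of -0.11, and RelA(TA2) from RelA(Ser276Ala) by -0.04, against -0.24 on X. Chromosome 12 had a median of 0.15, with 17 of 427 genes higher (3.98%) and 3 lower. Their part in the differences of single genes was not tested. Xist, the RNA of the inactive X chromosome, overlapped between the lines, with 173 and 78.9 FPKM in RelA(TA2) against 108 and 151 FPKM in RelA(wt) cells (log2 -0.12, SE 0.36, adjusted p = 0.954 from limma).

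**Figure D5:**
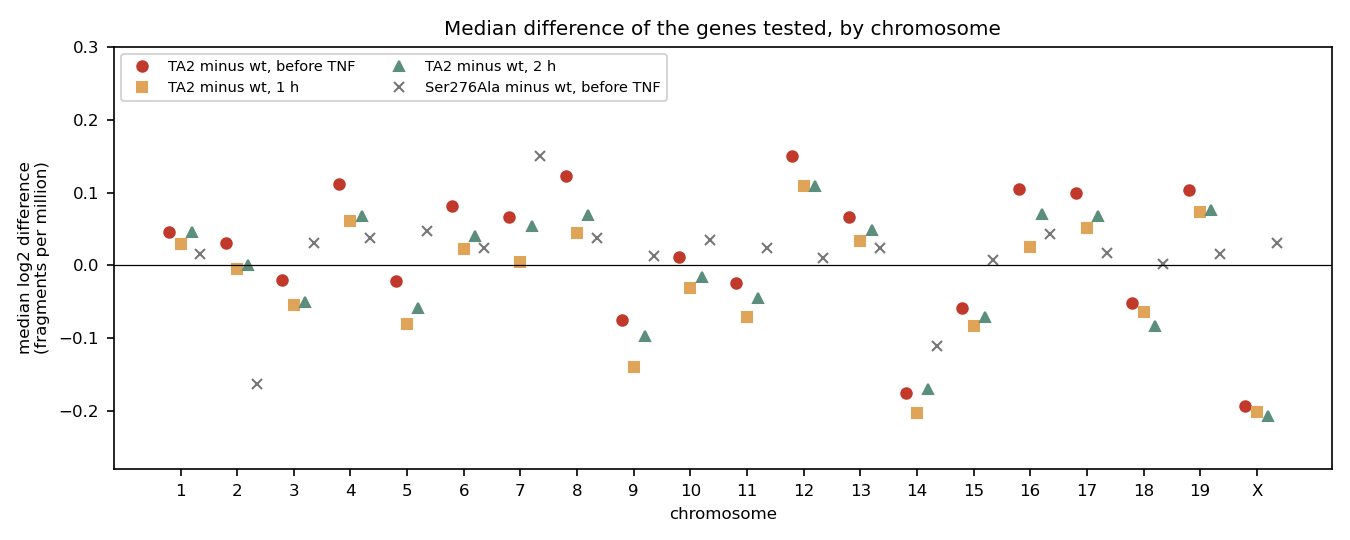
Median log2 difference on fragments per M of the genes on each chromosome, for RelA(TA2) minus RelA(wt) before TNFα and at 1 h and 2 h, and for RelA(Ser276Ala) minus RelA(wt) before TNFα. The RelA(TA2) medians lie between -0.21 and -0.17 on chromosomes 14 and X, and between 0.11 and 0.15 on chromosome 12.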

How the data were processed

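RNA of the 18 libraries was measured by mRNA sequencing. Per the submitters' processing notes, the authors used CASAVA 1.8.2, TopHat2 2.0.5 and Bowtie2 2.0.0.7 on mm10 (GRCm38) and ran Cufflinks 2.0.2 on each library to assemble its transcripts. The deposited values are the FPKM of assembled transcripts, already scaled by the authors for depth and transcript length. The authors' Cuffdiff output was not used.

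Transcripts were placed on 22453 RefSeq genes when at least 50% of their bases lay in a gene's exons or they covered at least 50% of its exonic bases, and their FPKM were added up. Of these genes, 453 were joined with a neighbour in some assembled transcript. Fragments were recovered from FPKM and its upper confidence limit, and 89.0% to 90.2% of those under 500 per library lay within 0.02 of a whole number. They were given per M fragments in genes.

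A gene entered the test if 2 libraries or more held it at 1 FPKM or above. The test was made with limma 3.58.1 (R 4.3.3) on log2(FPKM + 0.5), with 1 mean per condition over all 18 libraries, a variance trend and two-sided p adjusted by Benjamini and Hochberg. A log2 difference on this scale understates that of low genes. With 2 libraries per condition p-values rest on a spread shared over conditions. Alternatives changed the amount added, filter, scaling, isoforms, libraries and measure. Python 3.11.15 was used, and the fits were tested on simulated data.

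Genes named are Rela, Crebbp and Ep300, the 15 per direction of largest difference (at least 5 FPKM in the higher line, lines not overlapping), and up to 4 per list of smallest adjusted p, with 2 where none passed. Others, among them Thbs1, Sparc, Fbln5, Loxl2, Myl9, Tagln, Junb, Klf6, Ctgf and Ccl2, were named after their values were seen. The comparison, the 36 gene lists and the motifs were chosen with earlier results of these data known.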

Additional observations from a re-analysis of the deposited data

Results flagged for a closer look

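The genes below are those named genes whose difference between RelA(TA2) and RelA(wt) was not the same under TNFα as before it, by limma's test of that change. Each value is the log2 difference under TNFα less that before it, so a negative one means that RelA(TA2) stood lower relative to RelA(wt) under TNFα than at the start.

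Tnfsf9 changed by -2.27 at 1 h (adjusted p = 0.000911 from limma) and by -1.68 at 2 h (adjusted p = 0.00686), and passed on fragments at both times. At 2 h it had 10.3 and 12.6 FPKM in RelA(TA2) against 19.9 and 22.8 FPKM in RelA(wt) cells. Myc changed by -1.22 at 1 h (adjusted p = 0.0185), Klf6 by -1.11 (adjusted p = 0.00923) and Atf4 by -1.27 (adjusted p = 0.0234), and all 3 passed on fragments too. Atf4 had 241 and 243 FPKM in RelA(TA2) against 333 and 328 FPKM in RelA(wt) cells at 1 h. Mmp2 changed by -1.18 at 1 h (adjusted p = 0.0364) and by -1.24 at 2 h (adjusted p = 0.0393), but on fragments by -0.06 and -0.07 (adjusted p = 0.91 and 0.89).

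The other changes involve libraries listed at 0, so their size depends on the amount added before the logarithm. Mmp9, a gelatinase, changed by 5.05 at 2 h (adjusted p = 0.00619 from limma), where it had 6.93 and 14.7 FPKM in RelA(TA2) against 2.22 and 2.04 FPKM in RelA(wt) cells, and did not pass on fragments (log2 1.00, adjusted p = 0.366). Cd24a changed by -1.70 at 2 h (adjusted p = 0.0281), with 10.9 and 8.55 FPKM in RelA(TA2) against 1.30 and 1.83 FPKM in RelA(wt) cells, and did not pass on fragments (log2 -0.71, adjusted p = 0.189). Xirp2, an actin-binding protein of muscle, changed by 8.60 at 1 h (adjusted p = 0.0161) and passed on fragments (log2 7.89, adjusted p = 0.00178). Before TNFα it had 0.824 and 0 FPKM in RelA(TA2) against 49.9 and 53.9 FPKM in RelA(wt) cells. At 1 h it had 21.0 and 8.19 FPKM in RelA(TA2) against 2.61 and 1.15 FPKM in RelA(wt) cells, and at 2 h 10.5 and 9.51 FPKM in RelA(TA2) against 55.3 and 171 FPKM in RelA(wt) cells, so RelA(wt) cells were the higher line before TNFα and at 2 h and the lower one at 1 h. Prpf39 changed by 10.2 at 1 h and 5.06 at 2 h, for the listings at 0 given in the report. Usp18, a protease that removes ISG15, changed by -5.32 at 2 h (adjusted p = 0.0151), where it had 0 and 0 FPKM in RelA(TA2) against 2.51 and 1.14 FPKM in RelA(wt) cells. Before TNFα it had 3.35 and 4.73 FPKM in RelA(TA2) against 0 and 0 FPKM in RelA(wt) cells. A930024E05Rik, an unnamed gene, changed by -3.90 at 1 h and -3.90 at 2 h (adjusted p = 0.00675 and 0.00859), with 7.64 and 6.30 FPKM in RelA(TA2) against 0 and 0 FPKM in RelA(wt) cells before TNFα and 0 in all 8 libraries of these lines under TNFα.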

How the results depend on the processing

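Limits lie in 2 libraries per line, in the transcript assembly, which lists genes at 0, and in the unequal RelA(TA2) pair. Higher genes numbered 236 and lower genes 160 with the settings of the report. They were 181 to 265 and 139 to 193 with other amounts added, filters, scalings, isoforms, transcript lengths, joined genes left out, no variance trend or a replicate block. Recovered fragments gave 1520 and 1266. A fit on the 4 compared libraries alone, which has fewer samples, gave 37 and 27. Leaving out 1 library gave 117 to 410 higher and 122 to 237 lower genes.

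The replicate block gave 201 higher and 139 lower genes. Deviations of same-numbered libraries were not correlated (r = 0.0013 on FPKM), so the numbers were not taken as pairs. Higher genes called again numbered 552 at 1 h and 700 at 2 h on fragments, and lower genes 711 and 768. Without 1 library, 55 to 98 higher and 47 to 88 lower genes were called again at 2 h, the lowest without RelA(wt) replicate 1. Of 109 named genes past the test, 50 were so without each library in turn, 100 on fragments, 84 on the highest isoform and 10 in the fit on 4 libraries.

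Directions changed, for causes not tested, on fragments for Crebbp (0.064), Kif20a (-0.14), Lama5 (0.55), Mmp2 (-0.125), Nfkb2 (-0.225), Nfkbia (0.28) and Xist (0.052). They changed on the highest isoform for Crebbp (0.12), Kif20a (-0.13), Krt19 (0.17) and Nfkbiz (-0.22), and on transcripts of at least 300 bases for Nfkbia (0.16). Without 1 library the log2 difference ran from -0.38 to 0.15 for Krt19, -1.38 to 0.13 for Krt8, -1.10 to 0.14 for Nfkbia, -0.11 to 0.79 for Nfkbiz, -0.11 to 0.34 for Runx2, -0.17 to 0.85 for Tnfaip3 and -0.69 to 0.44 for Xist. Of these genes Lama5 and Mmp2 alone had passed the test.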
